A study of Homo sapiens with 14 samples.

Results

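The genes described here are the 9 enzymes that build serine and pass its carbon to folate: PHGDH, PSAT1, PSPH, SHMT1, MTHFD1, SHMT2, MTHFD2, MTHFD1L and ALDH1L2. They were taken by symbol from the tables of reads and RPKM, where each has 1 row among 28120 genes, and their values were read in all 14 libraries. RNA was sequenced from PANC-1, a line of human pancreatic cancer cells grown as monolayers in medium with fetal bovine serum. Cells were exposed to proanthocyanidins (PA, polyphenols of plants, 20 μg/ml) for 3, 12 or 24 h, or to DMSO, the vehicle, for 3, 12 or 24 h, and DMSO cultures were also taken at 0 h. Each of the 7 groups had 2 libraries. The design text calls them biological replicates without saying whether the cultures were separate, so each p-value is judged against library-to-library spread, which may be technical. All cells were of 1 line, and the labels name no change of genotype.

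In the serine pathway, PHGDH oxidises a glycolytic intermediate, PSAT1 adds the amino group with glutamate as donor, and PSPH removes the phosphate to leave serine. The SHMT enzymes then split serine into glycine and a carbon unit carried by tetrahydrofolate, SHMT1 in the cytosol and SHMT2 in mitochondria. MTHFD2, MTHFD1L and MTHFD1 carry that unit through mitochondria as formate into the cytosol, where it is used for purines, thymidylate and methionine. Many tumours express PHGDH and MTHFD2 at high levels, and ATF4, MYC and NFE2L2 are known regulators of the pathway.

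The libraries held 26403984 to 35213154 reads in genes, and 15181 genes were tested, all 9 enzymes among them. Of the keratins of simple epithelium, KRT8, KRT18 and KRT19 were abundant (KRT18 at 2040 to 6740 CPM, its reads scaled to library size), but KRT7 was low, at 6.3 to 21 CPM. The epithelial adhesion genes EPCAM and CDH1 were low too, at 3.85 to 7.79 and 0.274 to 1.34 CPM. The 6 epithelial markers together reached 18100 to 20900 CPM with PA at 24 h, against 5970 to 5990 CPM with DMSO. The summed leukocyte list was 5.3 to 5.43 CPM with PA and 1.79 to 2.06 CPM with DMSO at 24 h, and the fibroblast list 20.5 to 20.9 CPM with PA and 13.1 to 13.8 CPM with DMSO. The part of these markers in the results was not tested. Single markers of leukocytes (PTPRC), endothelium (PECAM1), fibroblasts (COL1A2) and acinar cells (PRSS1) peaked at 0.145, 0.36, 0.0566 and 0.0277 CPM. Some other markers of these lists peaked higher, among them CD14 at 5.22, KDR (endothelium) at 1.15, COL1A1 at 28.9 and COL3A1 at 0.612 CPM. The 2 PA libraries of 12 h agreed least of all replicate pairs, with a Spearman correlation of 0.9784 across genes, and values that rest on 1 of them are given without it as well. MKI67, a marker of cycling cells, had 179 and 124 CPM with PA at 24 h, against 760 and 843 CPM with DMSO. In bulk RNA, a lower share of cells with a transcript and less of it per cell cannot be told apart.

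All levels below are TMM-normalised CPM unless RPKM, which also divides by gene length, is named. A change is the log2 difference from edgeR's quasi-likelihood test ± its standard error, and it passed when the Benjamini-Hochberg adjusted p over all tested genes was under 0.05. Between genes, levels were set side by side only as RPKM. MTHFD2 stood highest of the 9 in every group, with a mean of 82.6 RPKM at 0 h. MTHFD1 and PSAT1 followed at 38.5 and 35.3 RPKM, and both MTHFD1 libraries were above both PSAT1 libraries. SHMT2 had 29.5, MTHFD1L 23.9, PSPH 17.7, PHGDH 12.4 and SHMT1 5.33 RPKM. ALDH1L2 was near the limit of detection, at 0.05 RPKM and 7 to 31 reads a library. With PA at 24 h the order below MTHFD2 had become PSAT1, SHMT2, PSPH, PHGDH and MTHFD1, at 35.2, 31.4, 30, 23.8 and 20.8 RPKM. The libraries of PSAT1 and SHMT2 overlapped there, as did those of SHMT2 and PSPH and those of MTHFD1 and MTHFD1L (19.1 RPKM). PHGDH, seventh of the 9 at 0 h, was then above MTHFD1, which had been second.

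**Figure D1:**
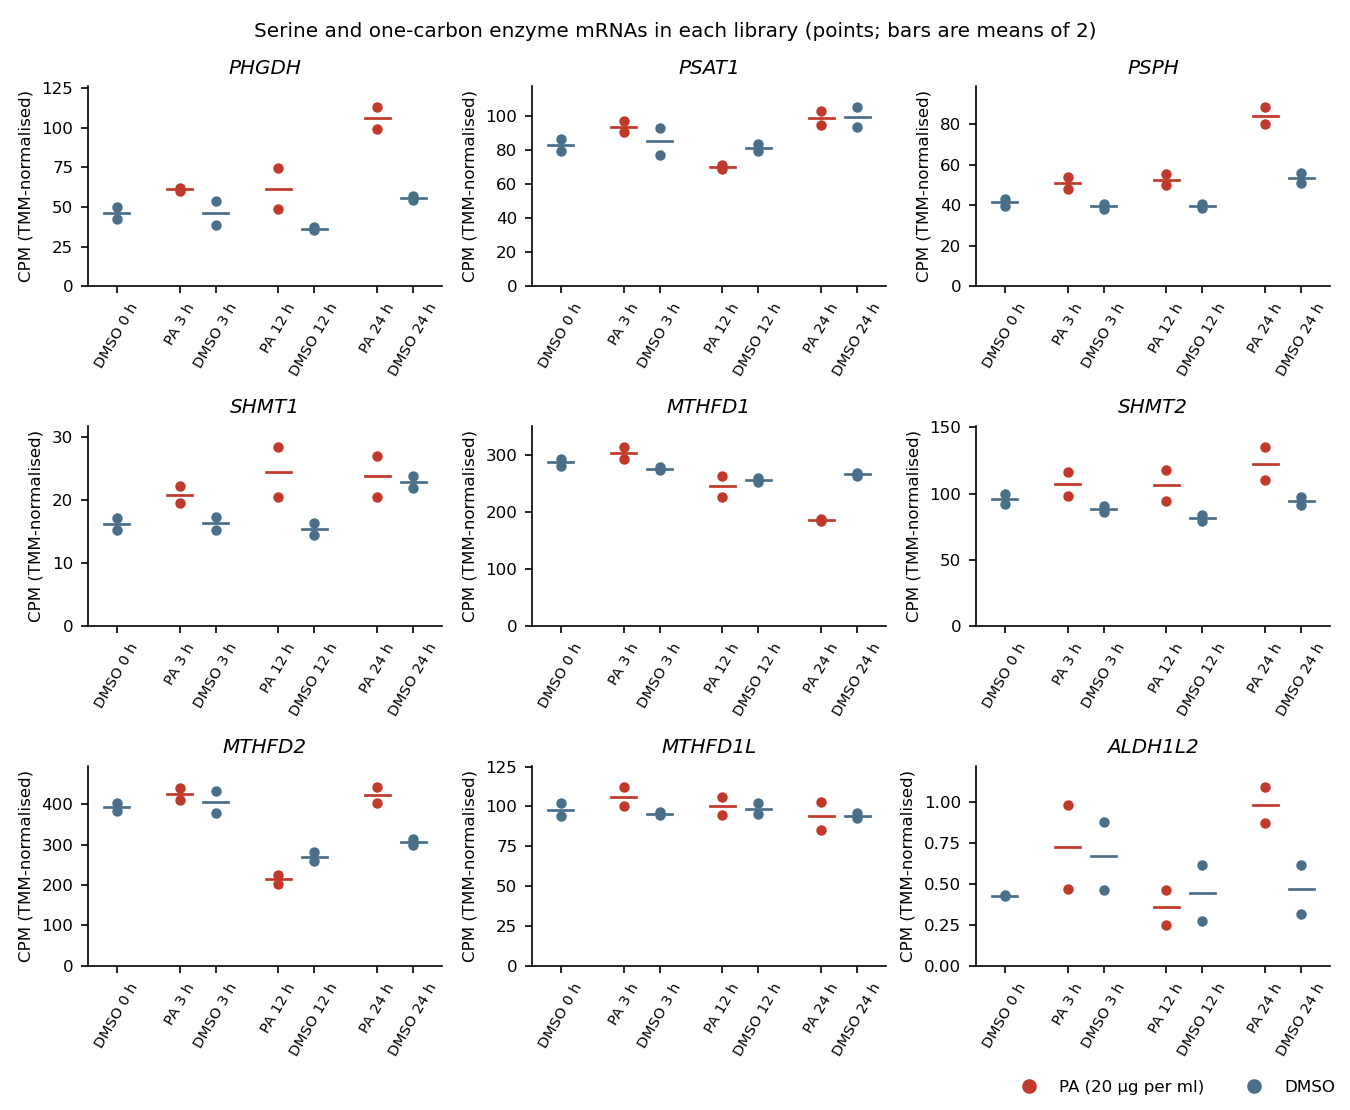
Level of each enzyme mRNA in CPM (TMM-normalised, axes from 0) in every library, by group; points are libraries (2 per group) and bars their mean. PHGDH and PSPH are highest in the PA libraries of 24 h (99.4 and 113, and 80.1 and 88.2 CPM), where MTHFD1 is lowest (184 and 187 CPM).

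What PA did to serine synthesis was asked first, by comparing PA with DMSO at each time. At 24 h the first and the last enzyme of the pathway, PHGDH and PSPH, passed as higher with PA and the middle one, PSAT1, did not, whereas with a correction for GC content and transcript length all 3 passed as higher; the difference between enzymes was not tested. PHGDH (ENSG00000092621.10, chr1:119648411-119744226, plus strand) had 99.4 and 113 CPM with PA at 24 h, against 54.2 and 57.2 CPM with DMSO. Both PA libraries lay well above both DMSO libraries. The change was 0.93 ± 0.20, or 1.9-fold (adjusted p = 0.00156).

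At 12 h PHGDH had 74.7 and 48.7 CPM with PA, against 37.1 and 35.5 CPM with DMSO. The PA libraries were both above DMSO but far apart, and the change of 0.77 ± 0.20 passed (adjusted p = 0.00669). At 3 h it had 61.9 and 60.4 CPM with PA and 54.1 and 38.5 CPM with DMSO, and the change of 0.40 ± 0.20 did not pass (adjusted p = 0.314). The groups did not overlap at 3 h either, but 54.6% of all tested genes did not overlap there. Without the first PA library of 12 h the PHGDH change at 12 h was 0.43 (adjusted p = 0.0812), and with the 4 libraries of 12 h fitted alone 0.75 (adjusted p = 0.0604). With a correction for GC content and transcript length it was 0.18 at 12 h (adjusted p = 0.274) and 0.34 at 24 h (adjusted p = 0.0263); PHGDH has 58.3% GC, against a median of 48.8% over tested genes.

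PSPH (ENSG00000146733.12, chr7:56011051-56051604, minus strand) had 80.1 and 88.2 CPM with PA at 24 h, against 51 and 56 CPM with DMSO. The lower PA library was well above the higher DMSO library, and the change was 0.65 ± 0.13, or 1.57-fold (adjusted p = 0.00111). At 12 h PSPH had 55.1 and 49.8 CPM with PA and 40.5 and 38.5 CPM with DMSO, again without overlap, and rose by 0.41 ± 0.13 (adjusted p = 0.0216). The 12 h call was lost without the first PA library (0.34, adjusted p = 0.0968), the first DMSO library (0.43, adjusted p = 0.0743) or the second DMSO library (0.36, adjusted p = 0.122). It was also lost with no filter on low counts (0.41, adjusted p = 0.096) and when the 4 libraries of 12 h were fitted alone (0.40, adjusted p = 0.149). At 3 h PSPH had 53.7 and 48 CPM with PA against 38.1 and 40.5 CPM with DMSO, a change of 0.37 ± 0.13 that did not pass (adjusted p = 0.2).

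PSAT1 (ENSG00000135069.12, chr9:78297143-78330093, plus strand) had 94.5 and 103 CPM with PA at 24 h and 93.5 and 105 CPM with DMSO. The PA libraries lay inside the DMSO range, with a change of -0.01 ± 0.13 (adjusted p = 0.977). At 12 h PSAT1 had 68.9 and 71.3 CPM with PA and 79.3 and 83.4 CPM with DMSO, a change of -0.22 ± 0.13 (adjusted p = 0.2). The direction rests on the processing: with the correction for GC content and length the change was 0.26 at 12 h (adjusted p = 0.123) and 0.45 at 24 h (adjusted p = 0.00904), whereas limma on log2(RPKM + 1) gave -0.34 (adjusted p = 0.039) and -0.32 (adjusted p = 0.0446). PSAT1 has 42.3% GC. The correction has no term for group, so it also takes out any PA effect that follows GC content or length. The RPKM scale moved the median of all genes by -0.13 at 12 h and -0.28 at 24 h relative to TMM. On it PHGDH and PSPH still rose at 24 h, by 0.58 (adjusted p = 0.0151) and 0.32 (adjusted p = 0.019).

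Within a library, the ratio of PSAT1 to PHGDH RPKM needs no scaling between libraries. It was 1.5 and 1.45 with PA at 24 h, against 2.73 and 2.9 with DMSO. At 12 h it was 1.46 and 2.31 with PA, against 3.37 and 3.73 with DMSO. The groups did not overlap at either time, and the mean log2 ratio was lower with PA by 0.95 at 12 h and 0.93 at 24 h. At 3 h the ratios overlapped (2.48 and 2.37 with PA, 2.25 and 3.81 with DMSO). With 2 libraries against 2 an exact permutation test cannot give a p below 0.33, and no other test of the ratios was run. The ratios are not corrected for GC content: with the correction the changes of PSAT1 and PHGDH were 0.26 and 0.18 at 12 h and 0.45 and 0.34 at 24 h, so that PSAT1 was no longer below PHGDH.

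In the cytosol, MTHFD1 was lower with PA at 24 h, and SHMT1 was higher at 12 h. MTHFD1 (ENSG00000100714.14, chr14:64388031-64463457, plus strand), which joins, converts and oxidises folate-bound carbon units, had 184 and 187 CPM with PA at 24 h, against 263 and 268 CPM with DMSO. Both PA libraries were below every other library of the study. The change was -0.52 ± 0.12, or 0.699-fold (adjusted p = 0.00213). At 12 h MTHFD1 had 263 and 226 CPM with PA and 252 and 259 CPM with DMSO, and at 3 h 313 and 292 CPM with PA and 278 and 273 CPM with DMSO. The PA effect at 24 h was below that at 3 h by 0.65 ± 0.16 (interaction term, adjusted p = 0.0203), and MTHFD1 was the 1 enzyme of 9 for which this difference passed, as it did for 14.4% of all tested genes (8.24% higher, 6.2% lower). For MTHFD2 this difference was 0.39 ± 0.17 (adjusted p = 0.139), but it passed with the correction for GC content and length (0.81, adjusted p = 0.00594). With that correction the 24 h change of MTHFD1 was -0.25 (adjusted p = 0.0612) and its interaction -0.44 (adjusted p = 0.0515). The interaction call was also lost without any 1 of 7 libraries among those of 3 h and 24 h, with an adjusted p of up to 0.0761.

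SHMT1 (ENSG00000176974.16, chr17:18327860-18363563, minus strand) had 28.3 and 20.5 CPM with PA at 12 h, against 16.3 and 14.4 CPM with DMSO. The groups did not overlap, and SHMT1 rose by 0.67 ± 0.19, or 1.59-fold (adjusted p = 0.00996). The call was lost without the first PA library of 12 h (0.42, adjusted p = 0.106), without the second DMSO library of 12 h (0.57, adjusted p = 0.0797) or with those 4 libraries fitted alone (0.65, adjusted p = 0.0722). At 24 h SHMT1 had 20.4 and 27 CPM with PA and 21.9 and 23.7 CPM with DMSO, so that the PA libraries spanned the DMSO range. The change there was 0.06 ± 0.19 (adjusted p = 0.823), and the difference between the 24 h and 12 h effects, -0.62 ± 0.26, did not pass (adjusted p = 0.461). At 3 h SHMT1 had 22.1 and 19.5 CPM with PA and 15.2 and 17.3 CPM with DMSO, a change of 0.36 ± 0.19 (adjusted p = 0.337).

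In mitochondria, MTHFD2 was lower with PA at 12 h and higher at 24 h. MTHFD2 (ENSG00000065911.10, chr2:74198562-74217565, plus strand), the dehydrogenase and cyclohydrolase of the mitochondrial branch, had 203 and 226 CPM with PA at 12 h, against 259 and 282 CPM with DMSO. At 24 h it had 403 and 442 CPM with PA, against 315 and 298 CPM with DMSO. The groups did not overlap at either time. MTHFD2 fell by 0.34 ± 0.12 on the log2 scale at 12 h (adjusted p = 0.0346) and rose by 0.46 ± 0.12, or 1.38-fold, at 24 h (adjusted p = 0.00598). At 3 h it had 411 and 440 CPM with PA and 377 and 432 CPM with DMSO, with overlap.

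The 12 h fall of MTHFD2 turned into a rise of 0.38 (adjusted p = 0.0282) with the correction for GC content and length, where the 24 h rise became 1.19 (adjusted p = 2.97e-06); MTHFD2 has 41.4% GC. On the RPKM scale the 24 h change was 0.14 (adjusted p = 0.344), against the median shift of -0.28 of all genes. The 12 h call was lost with no filter on low counts (adjusted p = 0.0946), with the 4 libraries of 12 h alone (adjusted p = 0.172) and without any 1 of 7 libraries, among them the first PA library of 12 h (-0.26, adjusted p = 0.18). The 24 h call was lost without the second PA library (0.40, adjusted p = 0.055) or the second DMSO library of 24 h (0.42, adjusted p = 0.0548). The difference between its 24 h and 12 h effects was 0.80 ± 0.17, with an unadjusted p of 0.00041 and an adjusted p of 0.0721. DESeq2 gave 0.82 for it (adjusted p = 0.0035).

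SHMT2 (ENSG00000182199.9, chr12:57229327-57234935, plus strand) had 118 and 94.3 CPM with PA at 12 h, against 79.2 and 84 CPM with DMSO, and 110 and 135 CPM with PA at 24 h, against 91.7 and 97.8 CPM with DMSO. The PA libraries were above DMSO at both times, and at 3 h as well (116 and 98.4 CPM with PA, 90.8 and 86.1 CPM with DMSO). The changes of 0.38 ± 0.15 at 12 h and 0.37 ± 0.15 at 24 h fell on either side of the threshold (adjusted p = 0.0496 and 0.0505), and that at 3 h was 0.28 ± 0.15 (adjusted p = 0.355). The 12 h call was lost in 17 of 25 alternatives with its direction kept, among them without the first PA library (0.22, adjusted p = 0.328), and with the correction for GC content and length SHMT2 stood at -0.03 at both times (adjusted p = 0.839 at 12 h and 0.807 at 24 h). At 24 h SHMT2 passed in 8 of 25 alternatives, DESeq2 among them (0.38, adjusted p = 0.0376). SHMT2 has 55.2% GC.

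MTHFD1L (ENSG00000120254.14, chr6:150865549-151101887, plus strand), which releases formate in mitochondria, passed at none of the 3 times. It had 85.3 and 103 CPM with PA at 24 h and 92.6 and 95.6 CPM with DMSO, and 106 and 94.7 CPM with PA at 12 h and 94.9 and 102 CPM with DMSO. Its changes were 0.03 ± 0.13 at 12 h and -0.002 ± 0.133 at 24 h. On the RPKM scale the 24 h change was -0.31 (adjusted p = 0.0241), close to the median shift of all genes. ALDH1L2 (ENSG00000136010.12, chr12:105019784-105084577, minus strand), the mitochondrial enzyme that oxidises formyl-folate, had 31 and 25 reads with PA at 24 h and 20 and 10 reads with DMSO. Its change of 1.06 ± 0.56 did not pass (adjusted p = 0.123), but passed with the correction for GC content and length (1.78, adjusted p = 0.0123).

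**Figure D2:**
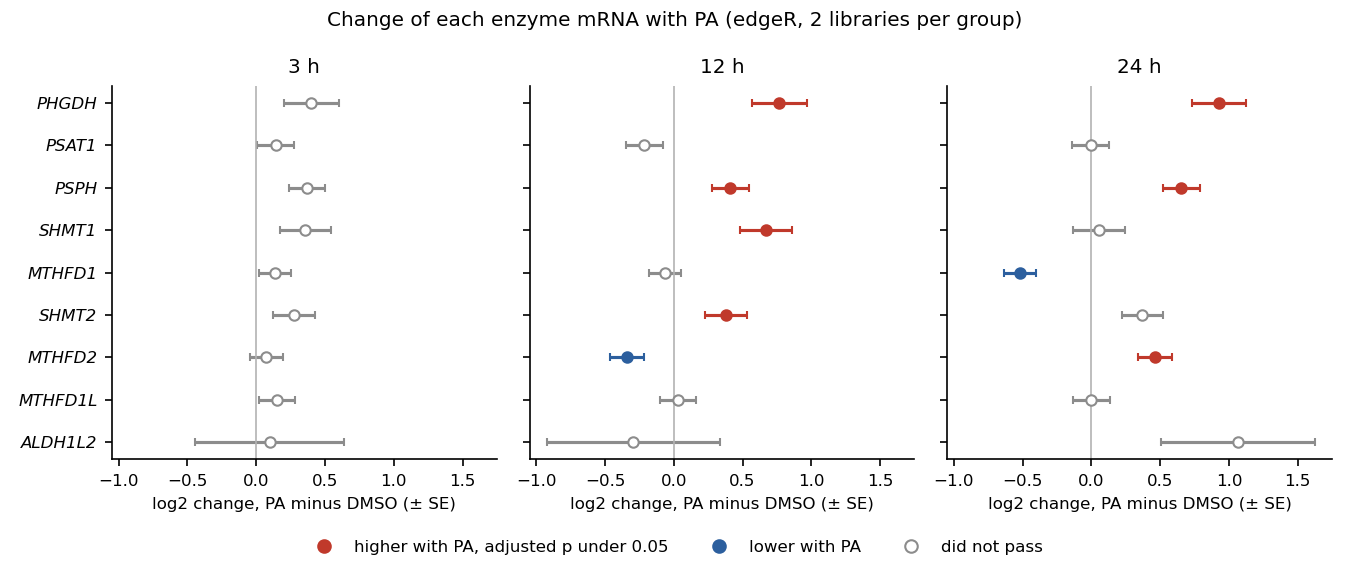
Log2 change of each enzyme mRNA, PA minus DMSO, at 3, 12 and 24 h (points, with ± SE as bars); filled points passed an adjusted p of 0.05, red for higher and blue for lower with PA. No enzyme passed at 3 h, 5 passed at 12 h and 4 at 24 h.

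Counted over the 9 enzymes, none passed at 3 h in edgeR or in DESeq2, where 1.72% of all tested genes passed in edgeR (0.138% higher, 1.58% lower) and 1 enzyme, PSPH, had an unadjusted p under 0.05; 6 of the 9 had both PA libraries above both DMSO libraries, and 26.7% of all tested genes did (27.9% below). At 12 h 4 were higher (PHGDH, PSPH, SHMT1 and SHMT2) and 1 lower (MTHFD2), which is 5 of 9, where 48.5% of all tested genes passed, 24.4% higher and 24.1% lower. At 24 h 3 were higher (PHGDH, PSPH and MTHFD2) and 1 lower (MTHFD1), which is 4 of 9, where 54.6% of all tested genes passed, 27.2% higher and 27.5% lower. Counted in either direction, the 5 of 9 at 12 h and 4 of 9 at 24 h are near those shares. Higher calls outnumbered lower ones among the 9 at both times, and this split was not tested. Without overlap, 4 enzymes were above and 2 below DMSO at 12 h (75.1% of all genes in either direction, 37.3% above and 37.8% below), and 5 above and 1 below at 24 h (79%, 39% and 40%). The median log2 change of the 9 was 0.15 at 3 h, 0.03 at 12 h and 0.37 at 24 h, beside -0.01, 0.01 and -0.01 over all tested genes. The difference between the 24 h and 12 h effects passed for none of the 9 in edgeR, for MTHFD2 in DESeq2, and for 0.422% of all genes in edgeR (0.263% higher, 0.158% lower). That between the 12 h and 3 h effects passed for none of the 9 and for 2.79% of all genes (2.1% higher, 0.685% lower); at an unadjusted p under 0.05 the first included MTHFD2, MTHFD1 and SHMT1, and the second MTHFD2. Without the first PA library of 12 h none of the 9 passed at 12 h.

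**Figure D3:**
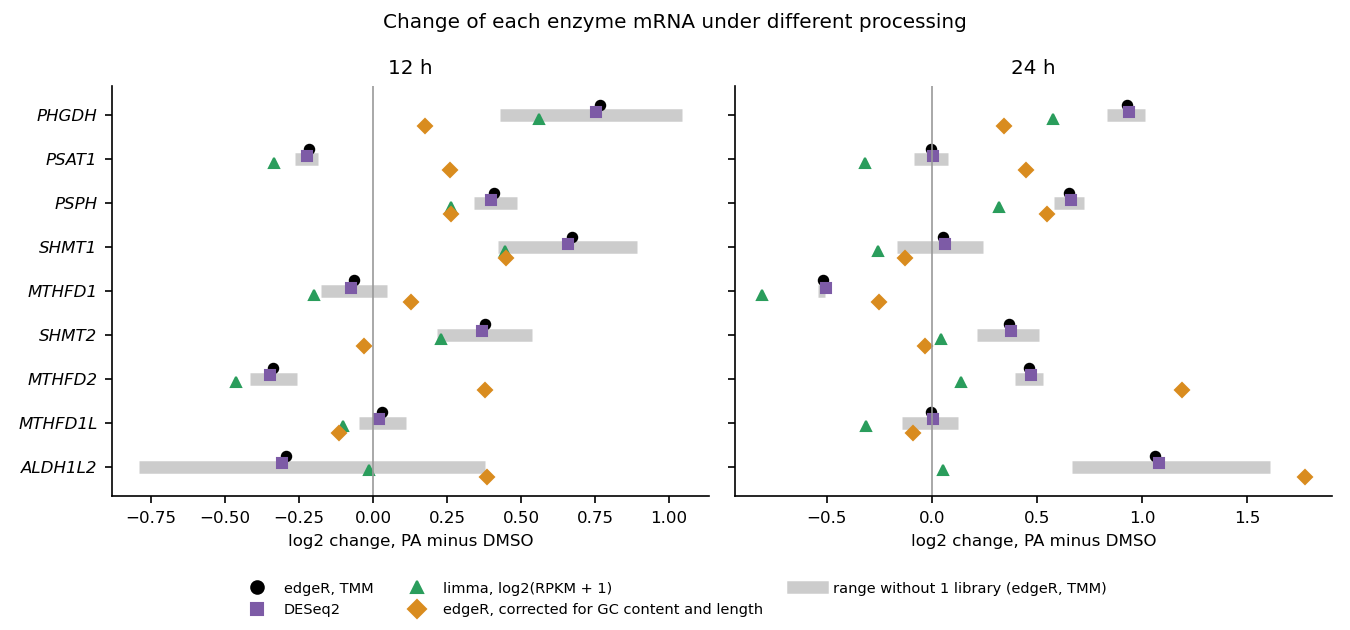
Log2 change of each enzyme mRNA, PA minus DMSO, at 12 h and 24 h with edgeR and TMM (black), DESeq2 (purple), limma on log2(RPKM + 1) (green) and edgeR corrected for GC content and length (orange); grey bars span the edgeR values with 1 library left out. PHGDH and PSPH at 24 h stay above 0 throughout, MTHFD2 at 12 h lies at -0.34 with TMM and at 0.38 after the correction, and MTHFD1 at 24 h lies between -0.81 and -0.25.

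The balance between the mitochondrial and the cytosolic enzyme of a step was read as the ratio of RPKM within a library. MTHFD2 to MTHFD1 stood at 3.41 and 3.69 with PA at 24 h, against 1.87 and 1.73 with DMSO. At 12 h it was 1.2 and 1.56 with PA and 1.6 and 1.69 with DMSO, and at 3 h 2.04 and 2.34 with PA and 2.11 and 2.46 with DMSO. The 2 PA libraries of 24 h held the highest ratios of all 14, and the first PA library of 12 h the lowest. The mean log2 ratio was 1.83 with PA and 0.85 with DMSO at 24 h, a difference of 0.98. MTHFD1L to MTHFD1 was higher with PA by 0.51 at 24 h on the same scale, without overlap. SHMT2 to SHMT1 was 5.09 and 4.68 with PA and 3.88 and 3.83 with DMSO at 24 h, but 3.88 and 4.3 with PA and 4.52 and 5.42 with DMSO at 12 h, so its direction differed between these times. These ratios are not corrected for GC content, and the difference between times was not tested. With the correction, the changes of MTHFD2 and MTHFD1 were 0.38 and 0.13 at 12 h, the opposite order to the ratio, and 1.19 and -0.25 at 24 h.

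**Figure D4:**
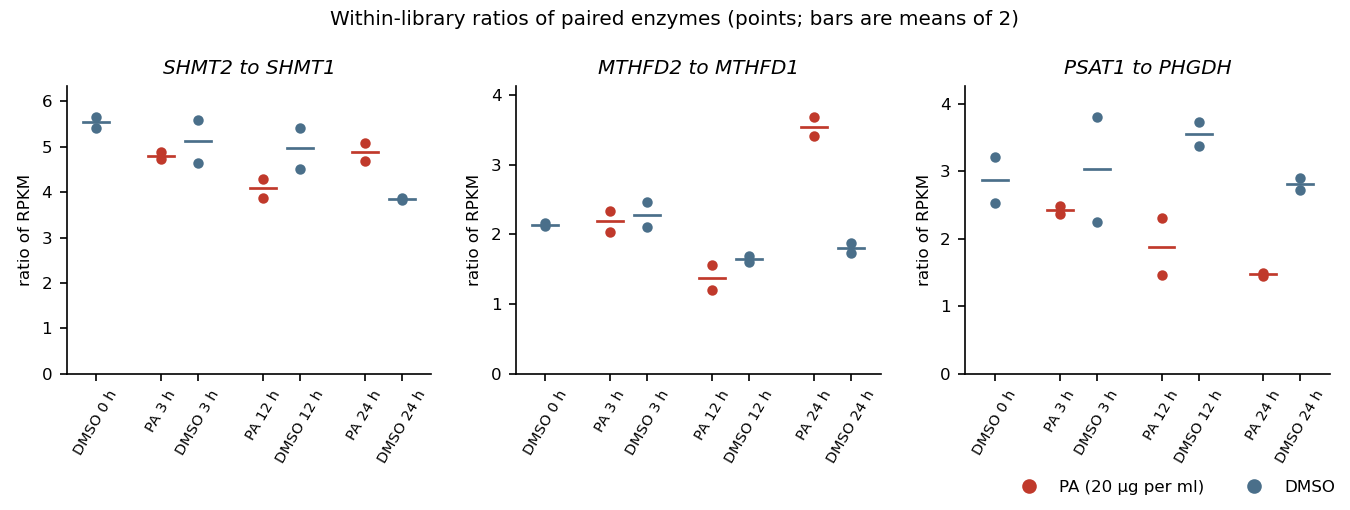
Ratio of RPKM within each library for SHMT2 to SHMT1, MTHFD2 to MTHFD1 and PSAT1 to PHGDH, by group (axes from 0; points are libraries, bars the mean of 2). The MTHFD2 to MTHFD1 ratio is 3.41 and 3.69 with PA at 24 h and at most 2.46 in every other library, while PSAT1 to PHGDH is at most 1.5 with PA at 24 h and at least 2.73 with DMSO; the ratios are not corrected for GC content, and with that correction PSAT1 (0.45) was not below PHGDH (0.34) at 24 h.

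The DMSO cultures were also set against their start. Against DMSO at 0 h, none of the 9 passed in DMSO at 3 h, where no gene of the 15181 passed in edgeR, 215 had an unadjusted p under 0.05 and the 8 enzymes other than ALDH1L2 gave values of -0.11 (SHMT2) to 0.04 (MTHFD2). In DMSO at 12 h 1 of the 9 passed, MTHFD2, where 1.46% of all tested genes did (0.323% higher, 1.13% lower). MTHFD2 had 259 and 282 CPM in DMSO at 12 h, against 382 and 404 CPM at 0 h, and fell by 0.54 ± 0.12 (adjusted p = 0.0484). This call was lost in 16 of 25 alternatives, with the direction kept. The change ran from -0.595 to -0.472 with 1 library left out. In DMSO at 24 h none of the 9 passed, where 2.46% of all tested genes did (0.527% higher, 1.93% lower), although PSPH, SHMT1 and MTHFD2 gave values of 0.38, 0.50 and -0.36 with unadjusted p of 0.014, 0.0195 and 0.011.

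Set against the start, PA cultures at 3 h had no enzyme that passed, where 1.64% of all tested genes did (0.231% higher, 1.41% lower). At 12 h SHMT1 was higher by 0.59 ± 0.19 (adjusted p = 0.024) and MTHFD2 lower by 0.88 on the log2 scale (-0.88 ± 0.12, adjusted p = 0.000189), 2 of 9 where 37.8% of all genes passed (18.6% higher, 19.2% lower). At 24 h PHGDH was higher by 1.20 ± 0.20, or 2.3-fold (adjusted p = 0.000256), PSPH by 1.03 ± 0.13, or 2.04-fold (adjusted p = 4.09e-05), and SHMT1 by 0.55 ± 0.19 (adjusted p = 0.0239), while MTHFD1 changed by -0.63 ± 0.12 (adjusted p = 0.000564). That is 4 of 9, where 53.2% of all genes passed (25.2% higher, 28.1% lower). MTHFD2 with PA at 24 h (403 and 442 CPM) lay at the level of DMSO at 0 h (382 and 404 CPM), a difference of 0.10 ± 0.12 (adjusted p = 0.495). The rise of MTHFD2 over DMSO at 24 h thus stood beside a level in DMSO of 315 and 298 CPM, below the 0 h libraries. These comparisons share the 0 h libraries, and each joins the effect of PA with that of time in culture. In DMSO at 24 h, PHGDH, PSPH, SHMT1 and MTHFD1 stood at 0.27, 0.38, 0.50 and -0.11 against 0 h, and none passed. Against DMSO at 24 h, SHMT1 with PA differed by 0.06. The SHMT1 calls were lost without either 0 h library, without the first PA library of 12 h (0.34, adjusted p = 0.223) or the second of 24 h (0.33, adjusted p = 0.239), and at 24 h on the RPKM scale (0.23, adjusted p = 0.245). The MTHFD2 call at 12 h was lost with the correction for GC content and length (-0.32, adjusted p = 0.061).

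Over the 14 libraries, the log2 CPM of PHGDH and PSPH correlated with Pearson's r = 0.92, of PHGDH and SHMT2 with 0.9, and of PSPH and MTHFD1 with -0.74, while PHGDH and PSAT1 gave 0.33. These points share their groups and their normalisation, so the values only describe the libraries. The tested genes of at least 2 CPM whose pattern was most like that of PHGDH were HINT2, RELL2 and ITPA (r = 0.977, 0.977 and 0.965). MTHFD1 was most like CDC20, PLK1 and KPNA2 (0.986, 0.976 and 0.973), and PSPH like ASB9, C20orf96 and HBP1 (0.969, 0.961 and 0.959). SHMT2 was most like SARS2, PSMB5 and PRDX6 (0.975, 0.963 and 0.957), and MTHFD2 like CHURC1, CALM2 and DLGAP1-AS2 (0.961, 0.93 and 0.921). PSAT1 was most like DPY30, NT5DC1 and NIT2 (0.946, 0.844 and 0.84), and SHMT1 like B3GNT7 and ADI1 (0.926 and 0.913). MTHFD1L (PRMT5-AS1, EMC8 and ODC1, 0.86, 0.858 and 0.838) and ALDH1L2 (PARD3B, WRB and SPTLC1, 0.81, 0.759 and 0.735) had the lowest first values.

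Around the 9 enzymes, 47 further rows of the pathway were read, of glycine cleavage, the folate cycle, folate and serine transport, the methionine cycle, purine synthesis and serine use, and 40 of them were tested. None rose and 1 fell at 3 h, 9 rose and 9 fell at 12 h, and 10 rose and 15 fell at 24 h, beside 1.72%, 48.5% and 54.6% of all tested genes that passed at these times. On the RPKM scale the 24 h split was 5 higher and 20 lower, and after the correction for GC content and length 14 higher and 9 lower. In the folate cycle 2 of 9 tested genes rose and 5 fell at 24 h, where 27.2% of all tested genes rose and 27.5% fell. None of the 4 glycine cleavage genes passed at any time, with changes of -0.31 ± 0.19 for GLDC and -0.19 ± 0.16 for GCSH at 24 h.

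Among the genes that rose, CTH, which makes cysteine from cystathionine, had 5.18 and 6.35 CPM with PA at 24 h, against 2.24 and 1.6 CPM with DMSO, a change of 1.58 ± 0.35 (adjusted p = 0.00178). FPGS, which adds the glutamate tail that keeps folate in the cell, rose by 1.21 ± 0.21 at 24 h (adjusted p = 0.000389), and by 0.80 at 12 h, values that were 0.39 and 0.01 after the correction for GC content and length. The glycine transporter gene SLC6A9, the mitochondrial serine carrier family gene SFXN3, the homocysteine-releasing AHCY and the serine dehydratase-like SDSL rose at both 12 h and 24 h, by 0.73 to 1.26 at 24 h. At 12 h the calls of FPGS, SLC6A9, SFXN3, AHCY and SDSL were lost with that correction, and at 24 h those of AHCY (0.25, adjusted p = 0.096) and SDSL (0.04, adjusted p = 0.901), while SLC6A9 stood at 0.68. Without the first PA or the first DMSO library of 12 h the 12 h calls of FPGS, SLC6A9 and SFXN3 were lost as well, and without the first DMSO library of 24 h that of SLC6A9 at 24 h (0.97, adjusted p = 0.0544). On the RPKM scale the 24 h changes of CTH and FPGS were 0.72 and 0.77, and the 24 h call of SDSL was lost (adjusted p = 0.146).

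MAT2A, which makes S-adenosylmethionine, was the 1 gene of this list that fell at 3 h, with 279 and 277 CPM with PA, against 441 and 447 CPM with DMSO (-0.68 ± 0.11, adjusted p = 0.00483; 0.111 without the first PA library of 3 h). At 24 h it had 165 and 173 CPM with PA, against 396 and 399 CPM with DMSO (-1.24 ± 0.11, adjusted p = 3.4e-06). Methionine synthase MTR had 27.6 and 19.3 CPM with PA at 24 h, against 60.2 and 57 CPM with DMSO (-1.32 ± 0.24, adjusted p = 0.000482), a change of -0.85 after the correction. Its reductase MTRR fell by 0.71 on the log2 scale at 24 h (adjusted p = 0.00183), a value that was -0.14 (adjusted p = 0.381) after the correction. PPAT, which opens purine synthesis, had 11.2 and 8.58 CPM with PA at 24 h, against 27.7 and 27.2 CPM with DMSO (-1.48 ± 0.29, adjusted p = 0.000896), a change of -0.55 after the correction. MTFMT, which formylates mitochondrial initiator tRNA, fell with a change of -0.88 ± 0.19 (adjusted p = 0.00174).

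**Figure D5:**
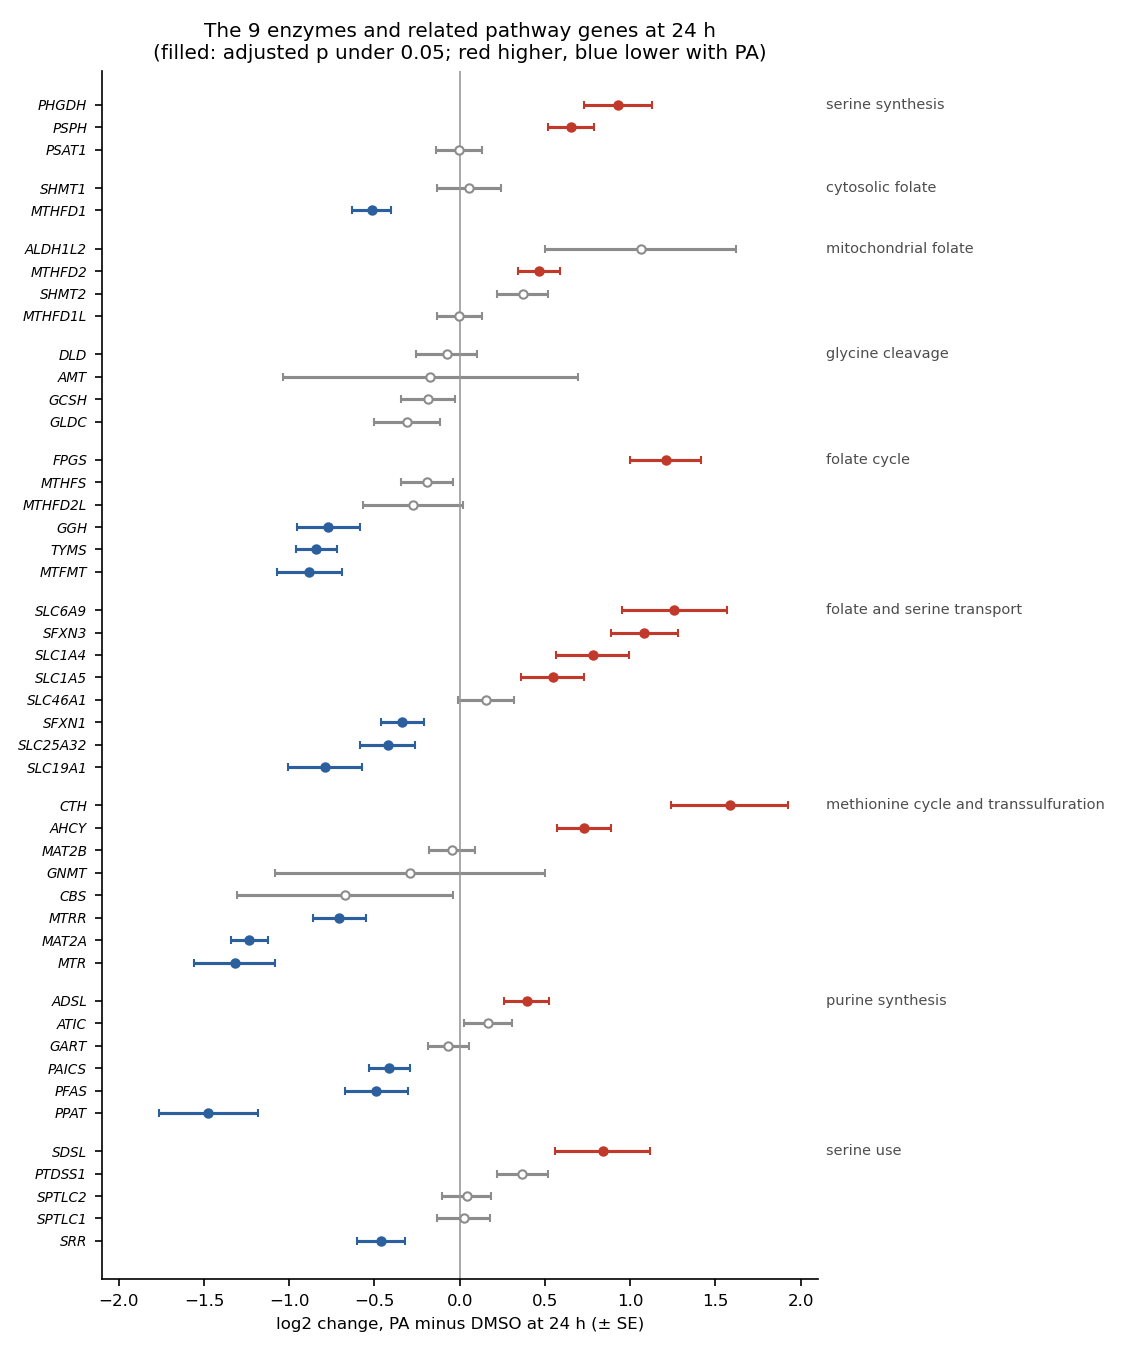
Log2 change, PA minus DMSO, at 24 h (points, ± SE as bars) of the 9 enzymes and of tested genes of the surrounding pathway that are reported here, grouped by role; filled points passed an adjusted p of 0.05, red for higher and blue for lower with PA. The folate cycle genes shown run from FPGS at 1.21 to MTFMT at -0.88.

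Of the regulators, ATF4 was higher with PA at 24 h, with 611 and 582 CPM, against 247 and 280 CPM with DMSO (1.18 ± 0.15, adjusted p = 4.55e-05), a change of 0.66 after the correction. These DMSO libraries were below the 0 h mean of ATF4, 454 CPM. The mean with PA at 24 h was 596 CPM, and no test of ATF4 against 0 h is given. At 12 h ATF4 did not pass (265 and 219 CPM with PA, 212 and 259 CPM with DMSO, 0.04 ± 0.15). There the correction for GC content and length gave -0.47 (adjusted p = 0.00417). MYC passed at no time, at 38 and 45.1 CPM with PA and 34.8 and 34.2 CPM with DMSO at 24 h (0.27 ± 0.15, adjusted p = 0.148), a value that was -0.07 after the correction and -0.05 on the RPKM scale; at 12 h the correction gave -0.56 (adjusted p = 0.00235). NFE2L2 had 42.6 and 74.7 CPM with PA at 12 h, against 120 and 118 CPM with DMSO (-1.02 ± 0.23, adjusted p = 0.00307; -0.67 without the first PA library of 12 h), and 70.4 and 51.1 CPM with PA at 24 h, against 112 and 107 CPM with DMSO (-0.85 ± 0.23, adjusted p = 0.00717; 0.0857 without the second PA library of 24 h).

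Since ATF4 and MYC are known to act on these genes, the RefSeq promoter windows of GRCh38.p14, from 250 bases before to 50 after a start site, were searched on both strands for TGATGNAA, the core of the composite element that ATF4 binds, and for CACGTG, the E-box that MYC binds; matches of the 2 motifs may share bases, and those found here do not. Of the 9 enzymes 6 have windows, namely PHGDH, PSAT1, SHMT1, MTHFD1, MTHFD2 and MTHFD1L. Only MTHFD1L held the first motif, which 3.62% of 35116 windows hold, and MTHFD1 and MTHFD1L held the second, which 7.26% hold. These shares count windows, not genes, and a gene can have several. MTHFD1L has 4 of the 9 windows of these enzymes, and each of its sites lies in 3 of the 4. The stretches are shown because they are the matches found in these genes, with the motif in capitals. They lie on the plus strand at chr14:64388328-64388353 for MTHFD1, and at chr6:150866347-150866374 and chr6:150866322-150866347 for MTHFD1L.
MTHFD1, CACGTG: agtccctaagCACGTGggttgggttg
MTHFD1L, TGATGNAA: ccgccggctcTGATGCAAtcgcgccggg
MTHFD1L, CACGTG: cgcccggctcCACGTGcgcagccggc
MTHFD1L, which holds both motifs, passed in none of the PA comparisons, and MTHFD1, which holds CACGTG, was lower with PA at 24 h. Of the enzymes with neither motif in their windows, PHGDH and MTHFD2 were higher at 24 h, and PSAT1 and SHMT1 did not pass there. PSPH, also higher at 24 h, has no window. The part of either motif in these changes was not tested. A match is only a run of letters, and a window without one says nothing of sites elsewhere.

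Other genes lie over or near these loci. GENCODE 29 places the protein-coding AC006030.1 across MTHFD2 on the opposite strand, and its row held 1409 to 3078 reads a library, beside 5630 to 15877 reads for MTHFD2. SMCR8 (861 to 1750 reads) overlaps SHMT1, ZBTB25 (312 to 778 reads) overlaps MTHFD1, NDUFA4L2 (8 to 61 reads) overlaps SHMT2 and C12orf45 (302 to 769 reads) overlaps ALDH1L2, each on the other strand. Whether reads were counted by strand is not given in the sources used here, so a share of reads may belong to the partner. GENCODE 29 also lists 14 processed or unprocessed pseudogenes of these enzymes, 7 of MTHFD2 and 4 of PSAT1 among them. None of them has a row of counts, so reads that they took or lent cannot be seen here.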

How the data were processed

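RNA of 14 PANC-1 libraries was measured by sequencing of read pairs. For each gene the authors deposited a raw count of reads, in whole numbers and without normalisation. The authors deposited RPKM values, scaled to gene length and library size, for 25447 genes. Per the submitters' processing notes TopHat2, edgeR and GRCh38 were used; which tool counted reads, and with what annotation, gene lengths and strand setting, is not given in the sources used here, so reads of overlapping genes and copies may be misassigned.

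The tests used edgeR 4.0.16 under R 4.3.3, with TMM, filterByExpr, and a quasi-likelihood fit of 7 group means to 14 libraries (7 residual degrees of freedom, biological coefficient of variation 15.1%). Tests were two-sided, with Benjamini-Hochberg adjustment over 15181 genes and a threshold of 0.05. The fit was tested on simulated data. Alternatives used DESeq2 1.42.0, limma 3.58.1 on log2(RPKM + 1) or log2(RPKM + 0.1), other filters, each library left out, and offsets per library from splines on GC content and length (GENCODE 29, 15071 genes, 99.3% of those tested). These offsets were fitted without regard to group, so technical and PA-related trends with GC content or length cannot be told apart. Replicate numbers did not pair libraries: 2 of 21 group pairs deviated together above 0.1.

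The members, lists and tests were chosen with earlier results of these data known. All 9 enzymes are named. Of the other pathway genes, the rule takes the 6 largest changes in each direction at 12 h or 24 h among those that passed, plus ATF4, MYC and NFE2L2; GLDC, GCSH and MKI67 were added after their values were seen. Some genes that these rules name, or that rank among the genes most alike, are counted but not reported here. Coordinates are from GENCODE 29 (GRCh38) by gene ID, and promoter sequences from RefSeq. Library depth limits precision for counting error only.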

Additional observations from a re-analysis of the deposited data

Results flagged for a closer look

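The effect of PA on MTHFD1 differed between 24 h and 3 h in edgeR, but the call was lost in 9 of 25 alternatives. PA minus DMSO was -0.52 ± 0.12 at 24 h and 0.14 ± 0.12 at 3 h, and the test of the difference between these effects gave -0.65 ± 0.16 (edgeR, adjusted p = 0.0203). MTHFD1 had 184 and 187 CPM with PA at 24 h, against 263 and 268 CPM with DMSO, and 313 and 292 CPM with PA at 3 h, against 278 and 273 CPM with DMSO. MKI67 changed by -2.40 ± 0.16 at 24 h, and its part in this result was not tested. With the correction for GC content and length the difference was -0.44 (adjusted p = 0.0515), while that of MTHFD2 passed (0.81, adjusted p = 0.00594). Of all tested genes, 14.4% passed for the difference between these times.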

How the results depend on the processing

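The 24 h calls of PHGDH and PSPH held in all 25 alternatives run, that of MTHFD1 in 23 and that of MTHFD2 in 20, while at 12 h SHMT1 held in 22, PHGDH in 21, PSPH in 17, MTHFD2 in 14 and SHMT2 in 6. With 2 libraries a group the spread is known from 7 degrees of freedom, and changes near the threshold rest on single libraries; ALDH1L2 is limited by depth. Where a value moved, the cause was not tested.

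Of all genes, 261 passed at 3 h (21 higher, 240 lower), against 1115 with no filter, 656 with the correction for GC content and length, 512 with that correction and the replicate block, 1183 with the 4 libraries alone, 539 with DESeq2 and 118 with log2(RPKM + 0.1). The share higher was 8.05% at 3 h and 41.3% with the correction, 34.4% with correction and block, 27.5% with DESeq2, 23% with no filter and 20.6% with the 4 libraries alone. At 12 h 7363 genes passed and 3671 with the 4 libraries alone. At 24 h 8296 passed; the share higher was 49.7%, and 32.6% on log2(RPKM + 1), where at 12 h 50.2% became 41.6%.

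Of the 9 enzymes, 5 passed at 12 h, against 2 with no filter, 3 with the correction, 2 with correction and block and 0 with the 4 libraries alone. For the difference of the 24 h and 3 h effects the count was 1, and 2 in each of the 3 RPKM settings. For that of the 24 h and 12 h effects it was 0, and 1 each with no filter, the correction, correction and block, DESeq2, log2(RPKM + 1) and log2(RPKM + 0.1). The enzyme was not the same throughout. It was MTHFD2 with DESeq2 and with the correction (0.81, adjusted p = 0.0297). On log2(RPKM + 1) it was MTHFD1 (-0.61, adjusted p = 0.0386), and MTHFD2 did not pass (adjusted p = 0.154). In DMSO at 12 h against 0 h the count was 1, and 0 with DESeq2 size factors, with the block and in the 3 RPKM settings, and 2 with the compared libraries alone. In DMSO at 24 h it was 0, and 3 with the correction, 2 with correction and block and 3 with those libraries alone. With PA against 0 h, those libraries alone gave 1 for 0 at 3 h and 1 for 2 at 12 h, and the correction gave 7 for 4 at 24 h, with or without the block.

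With 1 library left out, all-gene counts ranged from 28 to 1549 at 3 h, 4462 to 8673 at 12 h and 6098 to 9054 at 24 h. The enzyme counts ranged from 0 to 0 at 3 h, 0 to 5 at 12 h and 3 to 5 at 24 h. The differences between effects ranged from 0 to 2 (12 h minus 3 h), 0 to 1 (24 h minus 3 h) and 0 to 1 (24 h minus 12 h). Against 0 h they ranged from 0 to 0, 0 to 1 and 0 to 0 in DMSO at 3, 12 and 24 h, and from 0 to 0, 1 to 4 and 3 to 5 with PA. For PA minus DMSO, the low ends of the all-gene counts at 3 h and 12 h came without the first PA library of that time. The high ends at 3 h and 24 h came without the first PA library of 12 h. That library is not in those comparisons, but all groups share 1 estimate of the spread. The low end of the enzyme count at 12 h came without the first PA library of 12 h as well.

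Reversed values with the correction were 0.261 (PSAT1), 0.129 (MTHFD1), -0.029 (SHMT2), 0.378 (MTHFD2), -0.115 (MTHFD1L) and 0.386 (ALDH1L2) at 12 h and 0.449 (PSAT1), -0.130 (SHMT1) and -0.032 (SHMT2) at 24 h; with correction and block they were 0.262, 0.126, -0.029, 0.381, -0.115, 0.433, 0.448, -0.131 and -0.032, and 0.002 for the MTHFD2 effect at 12 h minus 3 h (-0.413 otherwise). MTHFD1L at 12 h and SHMT1 at 24 h reversed to -0.100 and -0.257 on log2(RPKM + 1), filtered or not, and to -0.104 and -0.291 on log2(RPKM + 0.1). PSAT1 and MTHFD1L at 24 h, near 0, were 0.009 and 0.011 with size factors and 0.005 and 0.007 with DESeq2. Leaving out 1 library reversed values in these ranges: ALDH1L2 (-0.501 to 0.645) and MTHFD2 (-0.016 to 0.191) at 3 h, MTHFD1L (-0.049 to 0.112), ALDH1L2 (-0.79 to 0.38) and MTHFD1 (-0.176 to 0.046) at 12 h, and PSAT1 (-0.087 to 0.078), MTHFD1L (-0.143 to 0.125) and SHMT1 (-0.165 to 0.245) at 24 h. In alternatives chosen after seeing the data, ATF4 at 12 h reversed to -0.467, -0.466 with the block, -0.087, -0.088 and -0.087 on RPKM scales, and ranged from -0.111 to 0.178 with a library left out; MYC at 24 h reversed to -0.068, -0.070, -0.052, -0.057 and -0.052.

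Pairing by replicate number was checked: among 21 group pairs, deviations from the group means correlated above 0.1 in 2 (range -0.22 to 0.24), so the numbers were not used as pairs. With the replicate block, 4 enzymes passed at 12 h and 4 at 24 h.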
